A study of Mus musculus with 6 samples.

Results

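Chromatin remodelers, bromodomain proteins and other chromatin modifiers were followed in pancreatic islets of wild-type mice and of mice lacking Paupar, whose long noncoding RNA is made from a gene next to Pax6. The group was defined by name, as 48 gene symbols out of 53670 genes in the count table, and all 48 were found there and passed the filter on low counts. This group was chosen with earlier results of these data known, so the shares given for its members are descriptions and no independent support. It holds SWI/SNF subunits, ISWI and CHD remodelers, the INO80 and SWR1 family, bromodomain proteins, corepressors with histone deacetylases, and enzymes that write or remove histone methyl and acetyl groups. RNA of isolated islets, the hormone-secreting cell clusters of the pancreas, was sequenced from mice aged 6 weeks. The wild-type (WT) group had the genotype Paupar +/+ and the knockout (KO) group Paupar -/-, with 3 libraries each. The labels name neither the strain, nor how the null allele was made, nor whether each library came from its own animal, so the p-values reflect the spread among these libraries. Some or, in WT, all of that spread may be technical.

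Remodelers use ATP to slide, evict or exchange nucleosomes, the units in which DNA is wrapped around histones. SWI/SNF (BAF and PBAF) complexes open promoters and enhancers, ISWI complexes space nucleosomes, CHD proteins act at promoters and along transcribed genes, and INO80, SRCAP and EP400 complexes handle the histone variant H2A.Z. Bromodomain proteins bind acetylated histones, and the BET proteins among them promote transcription elongation. In endocrine pancreas, SWI/SNF complexes are known partners of the transcription factor PDX1.

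Paupar itself had 177, 252 and 111 counts in the WT libraries (replicates 1 to 3, the order used throughout) and 4, 0 and 4 in the KO libraries. Total counts per library ran from 25733194 to 27285009, and the limit behind a count of 0, which is 3 counts, came to 0.110 to 0.117 CPM (the usual count per unit of library size), covering counting error only. The 7 endocrine markers, all of them detected, took 26.7% to 29.8% of counts in WT, compared with 31.5% to 32.1% in KO. The 12 acinar markers took 2.37% to 7.04% in WT and 1.61% to 4.25% in KO, and the 6 endothelial markers 0.0248% to 0.0315% and 0.0325% to 0.0359%. The part of these cells in the results was not tested, and in bulk islets fewer cells of a type and less RNA per cell cannot be told apart. Xist, the X-inactivation RNA, had 1120 and 862 counts in KO replicates 2 and 3 and at most 6 in the other libraries, so the sexes were not balanced between the groups. KO replicate 1 was therefore not from the same animal as KO replicates 2 and 3.

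The chromatin genes were mostly at a lower level in KO islets, by small steps, and a single one passed the test. Dot1l, the methyltransferase of lysine 79 of histone H3, fell to 50.5% of its WT level. It was the 1 of 48 members called lower (2.08%) by edgeR's quasi-likelihood test at a Benjamini-Hochberg adjusted p below 0.05, against 0.170% of the 15915 genes tested. In edgeR 0 members were called higher, while at an unadjusted p below 0.05 there was 1, Hdac1 (2.08%, against 6.99% of all genes), and DESeq2 called 0 members higher, against 1.31% of all genes. The median log2 fold change (KO over WT) of the 48 was -0.27, against 0.0023 over all tested genes. Negative values were found for 42 of 48 (87.5%), against 49.7% of all genes. An unadjusted p below 0.05 with a lower level in KO was reached by 27 members (56.2%), against 9.38% of all genes, and 20 reached it in neither direction. In 26 members (54.2%) every KO library lay below every WT library, against 12.1% of all genes, and in 0 did every KO library lie above, against 11.3%. At an adjusted p below 0.1 there were 6 members, against 0.785% of all genes: Dot1l, Brd3, Bptf, Chd2, Brd1 and Arid2, all of them lower. None was higher at that threshold, against 0.0440% of all genes. DESeq2 called 19 of the 46 members to which it gave an adjusted p, all 19 lower. Over all 15915 genes, with or without a DESeq2 adjusted p, it called 2.75% lower.

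**Figure D1:**
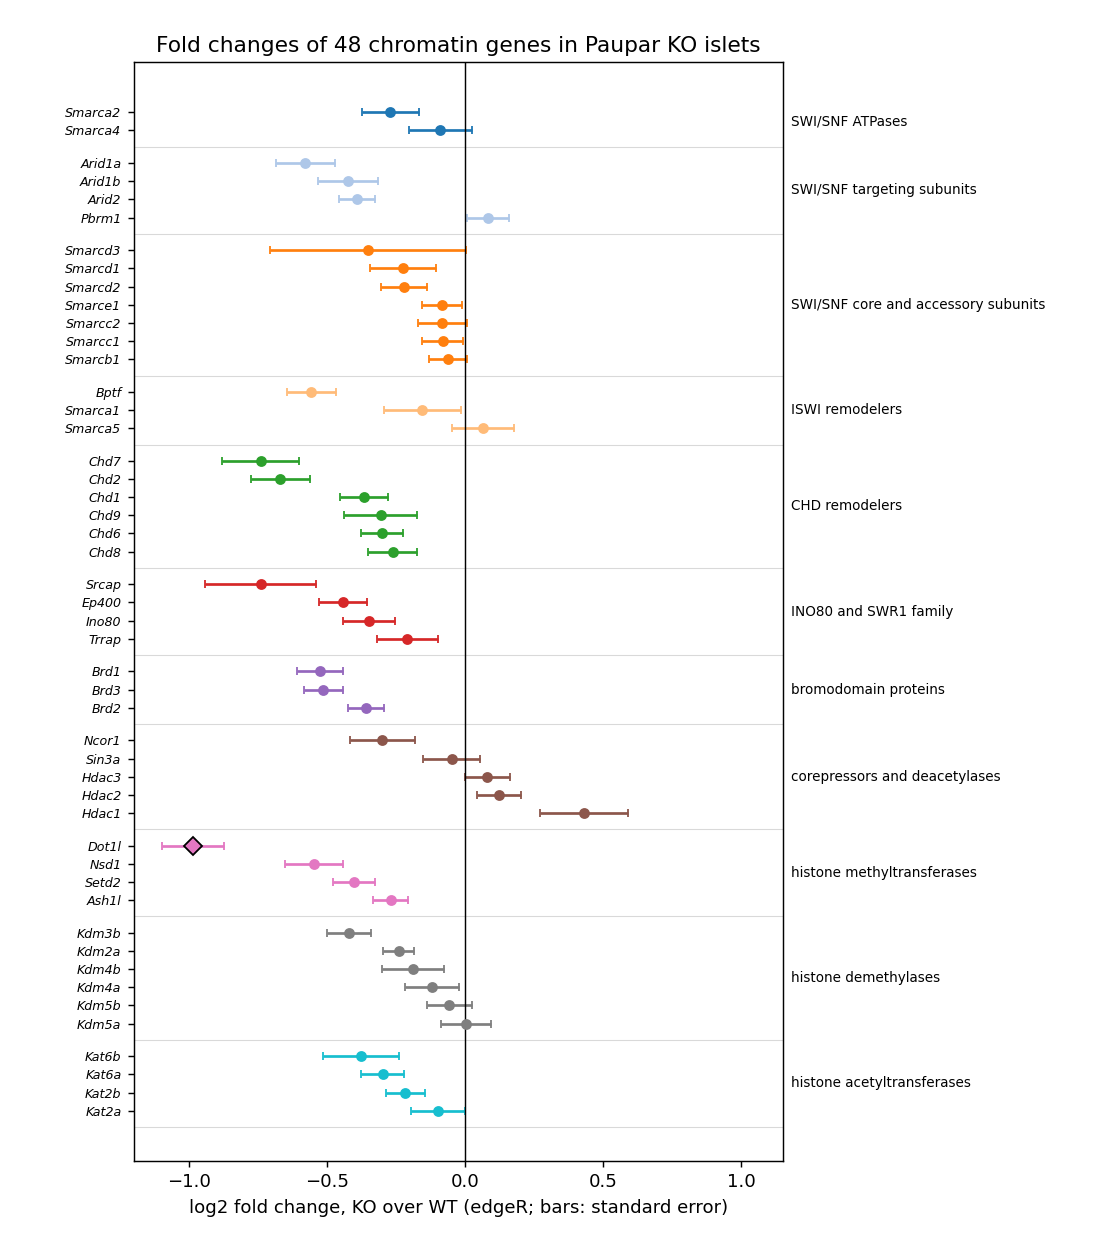
Log2 fold change of each member, KO over WT, with its standard error from edgeR (3 libraries a group); genes are grouped by role, and the outlined diamond marks Dot1l, which passed the adjusted test. Most points lie left of 0, from -0.99 for Dot1l to 0.43 for Hdac1.

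Promoters are shown for the members at an adjusted p below 0.1 that have an entry in RefSeq's promoter table (build GRCm38.p6) and, as a contrast, for the member with an entry whose fold change was most positive, Hdac2. Arid2 and Chd2 are named only. Each window runs 5′ to 3′ from 250 bases before the gene's start to 50 after it, and capitals mark GC boxes (GGGCGG, or CCGCCC for the other strand), the motif bound by SP1-type factors. The windows are chr10:80754953-80755252 (plus strand) for Dot1l, chr2:27475349-27475648 (minus) for Brd3, chr15:88734170-88734469 (minus) for Brd1, chr11:107132098-107132397 (minus) for Bptf and chr10:36974294-36974593 (plus) for Hdac2.
Dot1l: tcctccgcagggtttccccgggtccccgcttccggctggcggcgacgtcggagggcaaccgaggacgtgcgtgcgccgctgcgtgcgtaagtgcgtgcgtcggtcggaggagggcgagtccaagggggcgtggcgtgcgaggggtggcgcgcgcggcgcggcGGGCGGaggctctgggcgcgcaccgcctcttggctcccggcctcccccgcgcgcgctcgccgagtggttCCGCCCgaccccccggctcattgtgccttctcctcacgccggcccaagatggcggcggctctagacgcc
Brd3: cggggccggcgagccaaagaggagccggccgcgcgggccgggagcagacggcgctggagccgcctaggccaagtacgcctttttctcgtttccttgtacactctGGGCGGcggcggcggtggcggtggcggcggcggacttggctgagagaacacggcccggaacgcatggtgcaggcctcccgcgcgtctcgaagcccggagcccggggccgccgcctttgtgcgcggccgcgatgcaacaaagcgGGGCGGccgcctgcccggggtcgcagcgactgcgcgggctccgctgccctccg
Brd1: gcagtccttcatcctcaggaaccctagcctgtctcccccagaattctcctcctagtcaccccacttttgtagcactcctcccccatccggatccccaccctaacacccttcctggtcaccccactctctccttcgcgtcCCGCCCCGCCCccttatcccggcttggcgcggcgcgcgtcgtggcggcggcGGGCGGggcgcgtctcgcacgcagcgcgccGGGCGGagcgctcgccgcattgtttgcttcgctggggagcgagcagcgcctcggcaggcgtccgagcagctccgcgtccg
Bptf: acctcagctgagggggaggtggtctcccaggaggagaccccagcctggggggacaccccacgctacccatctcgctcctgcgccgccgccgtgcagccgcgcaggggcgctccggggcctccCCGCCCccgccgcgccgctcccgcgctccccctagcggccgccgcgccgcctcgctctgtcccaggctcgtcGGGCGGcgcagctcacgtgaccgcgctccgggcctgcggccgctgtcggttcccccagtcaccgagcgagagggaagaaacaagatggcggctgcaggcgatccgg
Hdac2: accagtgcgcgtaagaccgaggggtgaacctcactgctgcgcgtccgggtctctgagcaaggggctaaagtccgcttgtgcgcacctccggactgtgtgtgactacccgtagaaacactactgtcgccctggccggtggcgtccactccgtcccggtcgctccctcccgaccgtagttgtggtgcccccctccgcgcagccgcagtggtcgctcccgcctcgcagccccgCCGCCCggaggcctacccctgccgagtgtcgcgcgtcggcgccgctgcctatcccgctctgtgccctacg
These windows held 2 GC boxes in Dot1l, 2 in Brd3, 4 in Brd1, where neighbouring boxes overlap, 2 in Bptf and 1 in Hdac2, and 36 to 49 CG dinucleotides each. The table matched 34 of the 48 members, with 42 windows, and 35 of these (83.3%) held a GC box, against 35.7% of all 32851 windows. Those windows belong to 27025 genes, more than the 15915 tested here. They include noncoding genes and genes too low in these islets to be tested, so the shares over all windows are not those of expressed genes. Their median GC content was 67.8%, against 52.7% over all windows. TATAAA or its complement was in 1 member window (2.38%, against 13.6%), CCAAT or its complement in 8 (19.0%, against 37.4%) and the cAMP response element TGACGTCA in 0 (against 1.79%).

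Of the histone methyltransferases, Dot1l (chromosome 10, 80217951 to 80258206 in mm9) stood at 27.7, 28.5 and 23.5 CPM in WT and at 14.3, 12.2 and 13.7 in KO. The highest KO library was well below the lowest WT library. Its mean was 26.6 ± 2.69 CPM in WT and 13.4 ± 1.10 in KO (SD, n = 3), a log2 fold change of -0.99 (SE 0.11, edgeR adjusted p = 0.0446). The call was not kept in most fits with a library left out, which also have fewer libraries to estimate spread. Its edgeR adjusted p was 0.112 to 0.265 without any one of the libraries other than WT replicate 3, and 0.035 without WT replicate 3. The fold changes stayed at -1.06 to -0.92. Over 14 alternatives, 5 of which called it, its adjusted p ran from 1.86e-09 (DESeq2) to 0.446 (sex covariate), and its fold change kept its sign in all 14. Ash1l, a methyltransferase of lysine 36 of histone H3, showed the smallest step of the 4, at 123, 113 and 116 CPM in WT and 94.6, 97.2 and 100.02 in KO (-0.27, SE 0.06, adjusted p = 0.149). Nsd1, which adds methyl groups to the same lysine, was at -0.55 (SE 0.11, adjusted p = 0.111), and Setd2, which completes its trimethylation, at -0.40 (SE 0.08, adjusted p = 0.109). All 4 had every KO library below every WT library, against 12.1% of all genes. The share was 23.5% in the longest 20% of genes by exonic length, to which all 4 belong.

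The 3 genes of the bromodomain subgroup lay between -0.53 and -0.36 in log2 fold change. Brd3, a BET protein, stood at 54.4, 54.9 and 57.5 CPM in WT and 39.1, 36.6 and 41.1 in KO, which is 70.0% of the WT mean (-0.51, SE 0.07, adjusted p = 0.0669). Brd2, the BET protein with the highest level per length of all members with a length (36.4 CPM per kilobase of exon, RPKM, in WT), was at 263, 258 and 257 CPM in WT and 208, 204 and 193 in KO (-0.36, SE 0.06, adjusted p = 0.102). Brd1, a scaffold of histone acetyltransferase complexes, went from 82.9 ± 3.12 to 57.6 ± 5.33 CPM (-0.53, SE 0.08, adjusted p = 0.084). In each of these 3 genes the KO libraries lay below all WT libraries, against 12.1% of all genes. The share was 23.5% in the longest 20% of genes by exonic length, to which all 3 belong. The median of the group, -0.51, was the lowest of the 11 subgroups. Brd7, Brd8 and Brd9, which are outside the subgroup and among the partner genes listed further below, were at -0.17, -0.18 and -0.11 (SE 0.08, 0.09 and 0.12).

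**Figure D2:**
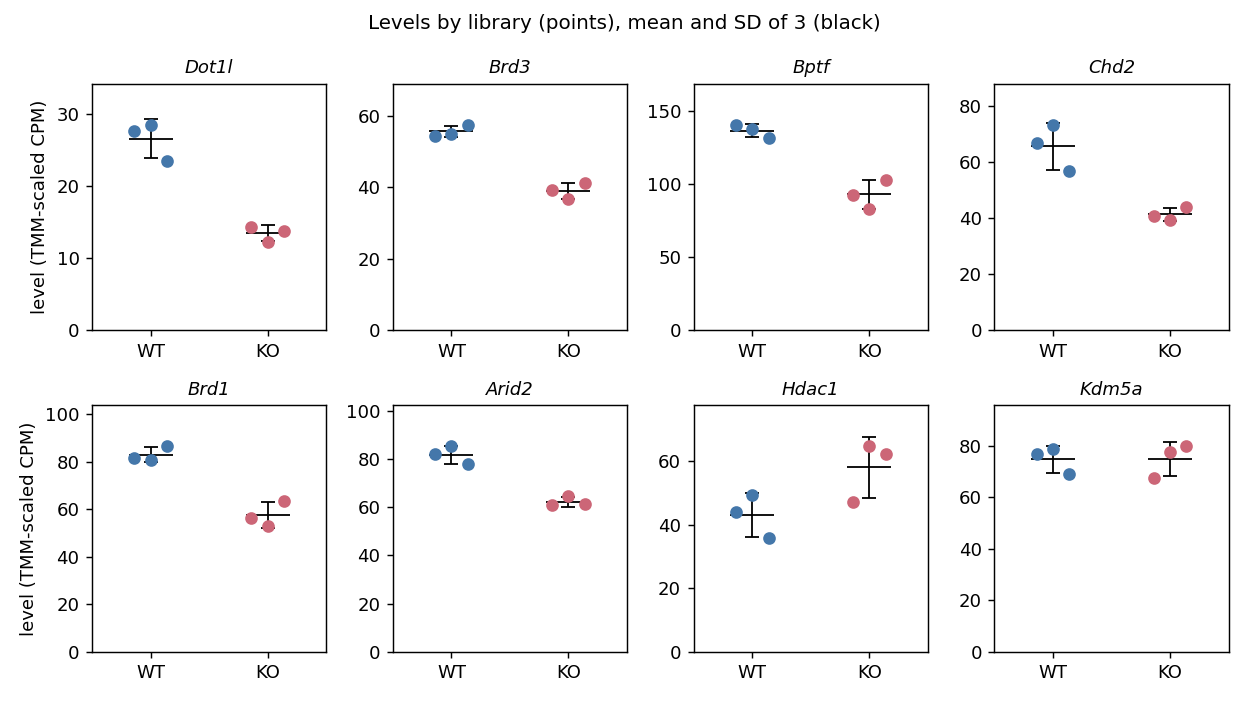
Level (TMM-scaled CPM, axes from 0) of the 6 members with an adjusted p below 0.1, of Hdac1 and of Kdm5a in each library (points), with mean and SD of 3 libraries in black. The groups do not overlap in the first 6 genes and overlap in Hdac1 and Kdm5a.

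Among the CHD remodelers all 6 fold changes were negative (median -0.34), against 49.7% of all genes, and 0 were called by edgeR. At an unadjusted p below 0.05, 5 (83.3%) were lower, against 9.38% of all genes. All 6 belong to the longest 20% of genes by exonic length, where 65.5% were negative and 21.0% were lower at that p. Chd2, which acts at actively transcribed genes, stood at 66.8, 73.3 and 56.7 CPM in WT and 40.5, 39.4 and 43.7 in KO (-0.67, SE 0.11, adjusted p = 0.084). Chd7, the remodeler mutated in CHARGE syndrome, had the most negative value of the subgroup, from 47.0 ± 6.43 to 28.1 ± 4.09 CPM (-0.74, SE 0.14, adjusted p = 0.109). Chd9 had the largest p, at 95.2, 111 and 77.9 CPM in WT and 70.2, 81.0 and 78.4 in KO (-0.31, SE 0.13, adjusted p = 0.313), and its groups overlapped through WT replicate 3. Chd1, which binds trimethylated lysine 4 of histone H3, was at -0.37, Chd6 at -0.30 and Chd8, a gene mutated in autism, at -0.26, with adjusted p from 0.153 to 0.230.

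Within SWI/SNF the median log2 fold change was -0.41 for the 4 subunits that set the complex's targets, -0.18 for the 2 ATPases and -0.085 for the core and accessory subunits. Their median exonic lengths were 10357, 6444.5 and 5027 bp in that order. With the offsets for length and GC content described below, the medians were -0.23, -0.028 and -0.041. The difference between these subgroups was not tested. Arid2, the PBAF-specific ARID subunit, stood at 82.2, 85.3 and 77.9 CPM in WT and 61.0, 64.6 and 61.3 in KO (-0.39, SE 0.07, adjusted p = 0.0881). The BAF-specific Arid1a (-0.58, SE 0.11, adjusted p = 0.106) and Arid1b (-0.43, SE 0.11, adjusted p = 0.165) did not overlap between groups either. Pbrm1, the polybromo subunit that shares the PBAF complex with Arid2, was at 119.8, 106 and 118 CPM in WT and 118, 117 and 129 in KO, with overlapping groups (0.08, SE 0.08, adjusted p = 0.638). The ATPase gene Smarca2 was at 128, 128 and 151 CPM in WT and 119.7, 99.98 and 117 in KO (-0.27, SE 0.10, adjusted p = 0.271), all KO libraries below all WT libraries. The other ATPase gene, Smarca4, was at 153, 153 and 129 CPM in WT and 123, 129 and 156 in KO, where KO replicate 3 was the highest of all (-0.09, SE 0.12, adjusted p = 0.741).

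The 7 core and accessory SWI/SNF genes had a median of -0.085 and 0 were called by edgeR. At an unadjusted p below 0.05, 1 was lower (14.3%, against 9.38% of all genes). That one, Smarcd2, stood at 47.3, 49.7 and 42.7 CPM in WT and 42.3, 39.7 and 37.8 in KO (-0.22, SE 0.08, adjusted p = 0.270). The scaffold gene Smarcc2 was at 175, 164 and 188 CPM in WT and 173, 149.7 and 176 in KO, with overlapping groups (-0.08, SE 0.09, adjusted p = 0.691). Its paralog Smarcc1, the core subunit Smarcb1 and the HMG-box subunit Smarce1 lay between -0.08 and -0.06. Smarcd1 was at -0.23 (SE 0.12), and the accessory subunit gene Smarcd3 at -0.35 with an SE of 0.36 on 14 to 33 counts per library. More than 50% of the exonic length of Smarcd3 (54.3%) is shared with genes of the other strand, so its counts are uncertain.

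Of the ISWI genes, Bptf, the histone-reading subunit of the NURF complex, stood at 141, 138 and 132 CPM in WT and 92.8, 83.1 and 103 in KO (-0.56, SE 0.09, adjusted p = 0.084). The ATPase gene Smarca5 was at 102, 81.3 and 105 CPM in WT and 102, 92.5 and 107 in KO (0.06, SE 0.11, adjusted p = 0.820), and its groups overlapped. Smarca1, the other ISWI ATPase gene and the X-linked one, was at 55.9 CPM in KO replicate 1, at 62.4 and 71.1 in KO replicates 2 and 3, and at 58.5 to 80.9 in WT (-0.16, SE 0.14, adjusted p = 0.624). In the INO80 and SWR1 family, Ep400, the ATPase of the TIP60 complex, was at 91.4, 94.5 and 79.1 CPM in WT and 62.2, 63.6 and 69.0 in KO (-0.44, SE 0.09, adjusted p = 0.116). Trrap, a scaffold that TIP60 and SAGA acetyltransferase complexes share, was at 89.3, 91.6 and 79.1 CPM in WT and 66.2, 85.7 and 72.7 in KO, where KO replicate 2 lay within the WT range (-0.21, SE 0.11, adjusted p = 0.402). Ino80 was at -0.35 (SE 0.09, adjusted p = 0.175). Srcap, which places H2A.Z, was at -0.74 (SE 0.20, adjusted p = 0.178) on only 38 to 77 counts per library. The annotation has 2 gene models of its name, so its level is uncertain.

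**Figure D3:**
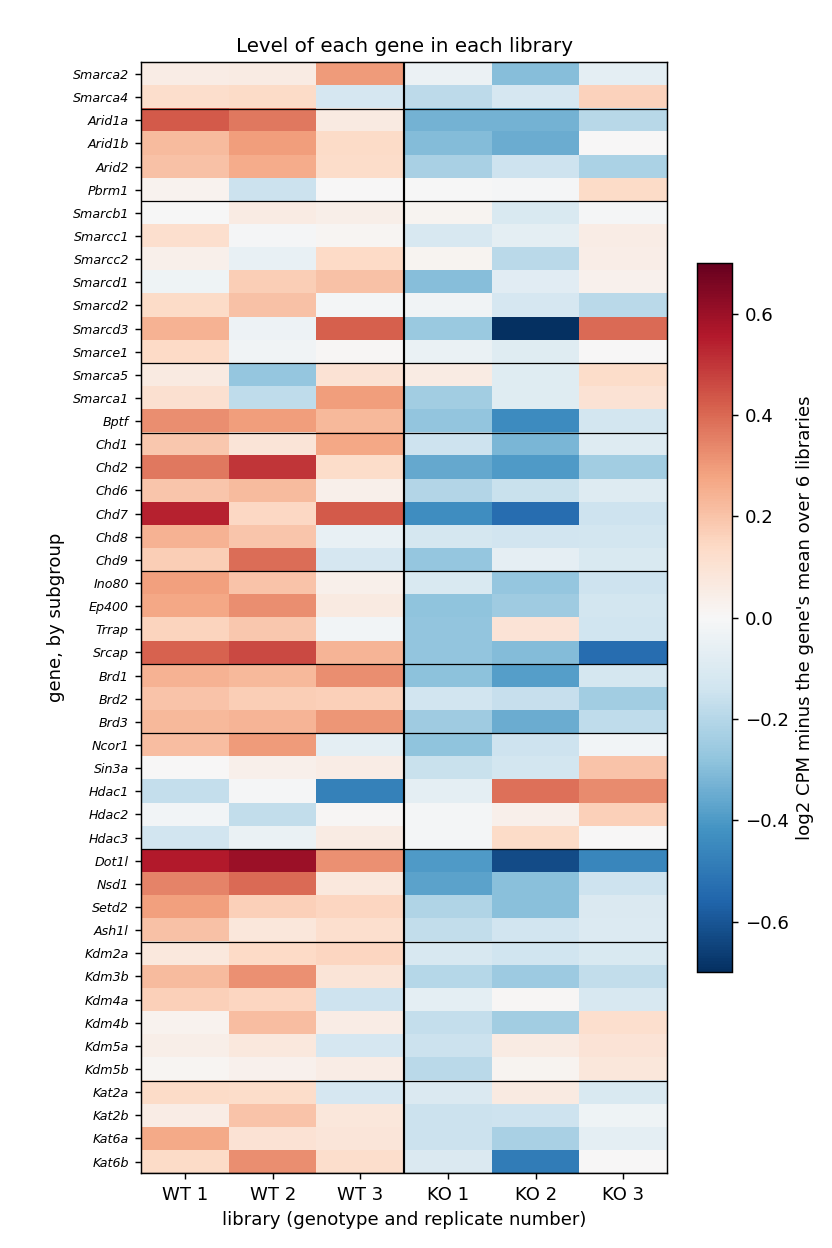
Level of each member in each library as log2 CPM (pseudocount 0.01) minus the gene's mean over the 6 libraries, with colours saturating at 0.7 either way; lines separate the subgroups and the genotypes. Most rows are above their mean in WT and below it in KO, while Pbrm1, the deacetylase genes and several core subunits are not.

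The corepressors and deacetylases had the only positive subgroup median, 0.08, and a median exonic length of 4482 bp. Hdac1, a class I deacetylase of the SIN3, NuRD and CoREST complexes, stood at 44.1, 49.4 and 35.8 CPM in WT and 47.2, 64.7 and 62.4 in KO (0.43, SE 0.16, adjusted p = 0.263). KO replicates 2 and 3 lay above every WT library, and KO replicate 1 was below WT replicate 2. With a sex covariate, under which the genotype effect rests on KO replicate 1, the value of Hdac1 was 0.13. Its paralog Hdac2 was at 0.12 (SE 0.08, adjusted p = 0.499), and Hdac3, the deacetylase of NCOR complexes, at 0.08 (SE 0.08, adjusted p = 0.667). Sin3a, the scaffold of the SIN3 complex, was at 65.4, 66.8 and 67.5 CPM in WT and 58.5, 59.6 and 74.9 in KO, with KO replicate 3 the highest (-0.05, SE 0.10, adjusted p = 0.851). Ncor1, the nuclear receptor corepressor, had an unadjusted p of 0.0372 (-0.30, SE 0.12, adjusted p = 0.279).

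Histone demethylases were split. Kdm3b, which acts on lysine 9 of histone H3, stood at 53.3, 57.2 and 48.7 CPM in WT and 39.9, 38.4 and 40.6 in KO (-0.42, SE 0.08, adjusted p = 0.109), and Kdm2a, which acts on lysine 36, was at -0.24 (SE 0.06, adjusted p = 0.151). Neither overlapped between the groups. Kdm5a, a demethylase of lysine 4, was at 76.7, 78.6 and 68.9 CPM in WT and 67.3, 77.6 and 79.7 in KO (0.0033, SE 0.09, adjusted p = 0.992). Its paralog Kdm5b was at -0.06, and the lysine 9 and 36 demethylase genes Kdm4a and Kdm4b were at -0.12 and -0.19, all 3 with overlapping groups. Among the acetyltransferases Kat6a (MOZ) stood at 98.5, 88.1 and 86.9 CPM in WT and 73.9, 70.2 and 78.1 in KO (-0.30, SE 0.08, adjusted p = 0.167). Kat2a (GCN5) was at 33.1, 33.0 and 27.8 CPM in WT and 28.1, 31.5 and 28.0 in KO, with overlapping groups (-0.10, SE 0.10, adjusted p = 0.657). Kat2b (PCAF) at -0.22 and Kat6b at -0.38 had adjusted p of 0.223 and 0.257 and groups that did not overlap.

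As a whole, the 48 genes took 0.390%, 0.404% and 0.388% of all counts in WT, compared with 0.300%, 0.305% and 0.334% in KO. Their median deviation from each gene's mean, in log2 CPM, was 0.17, 0.17 and 0.075 in WT and -0.17, -0.14 and -0.091 in KO. All 3 WT libraries were above 0 and all 3 KO libraries below it. The median deviation of the histone methyltransferases ran from 0.14 to 0.32 in WT and from -0.29 to -0.12 in KO. That of the SWI/SNF core and accessory subunits ran from -0.0062 to 0.12 and from -0.11 to 0.031, so these overlapped.

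The members are long genes, and length moved along with genotype. Exonic length, known for 47 of the 48, was 7777 bp in the median member and 3524 bp in the median tested gene, and 35 of the 47 (74.5%) belonged to the longest 20% of genes, those of 6035 bp or more. Over all genes, the median log2 fold change went from 0.093 in the shortest 20% to -0.099 in the longest 20%. The Spearman correlation of fold change with exonic length was -0.23 over 14776 genes and -0.51 over the 47 members, which share the same 6 libraries. Taken library by library, with log2 CPM centred on each gene, that correlation was 0.14, 0.098 and 0.14 in WT, compared with -0.24, -0.18 and -0.040 in KO. The 35 longest members had a median of -0.31, against -0.095 for the other 2920 genes of the longest 20%. Of these 35, 24 (68.6%) were lower at an unadjusted p below 0.05, against 21.0% of the longest 20% of genes. Negative values were found for 32 of the 35, against 65.5%, and 23 had all KO libraries below all WT libraries, against 23.5%. At an adjusted p below 0.1 there were 6 of the 35, against 2.27%, and at 0.05 there was 1, against 0.643%. The 5 members of middle length had a median of -0.10 and the 7 of the next class -0.12. Single members varied around this relation. Chd6, with the longest exons (19192 bp), was at -0.30, Kdm5a (14185 bp) at 0.0033, Pbrm1 (8846 bp) at 0.08 and Dot1l (8714 bp) at -0.99. The cause of the relation was not tested.

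**Figure D4:**
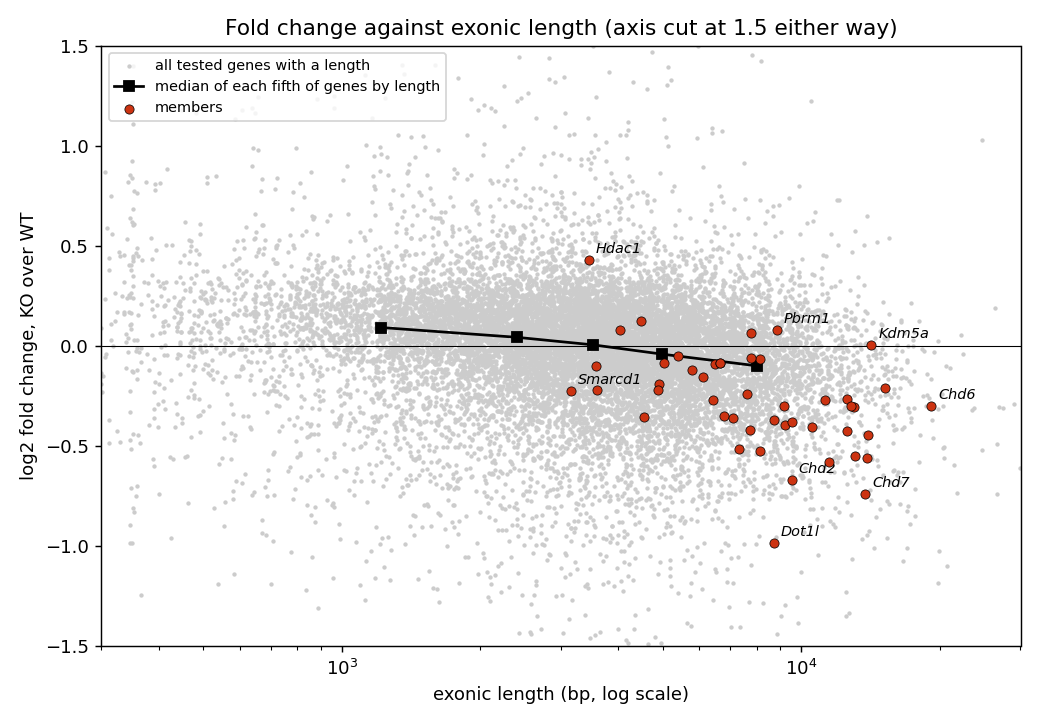
Log2 fold change, KO over WT, against exonic length (log axis) for tested genes (grey), members (red) and the median of each 20% of genes by length (black squares); the vertical axis ends at 1.5 either way. The medians go from 0.093 to -0.099, and most of the long members lie below that line.

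With smooth offsets for exonic length and GC content in each library, 33 of the 47 members with a length stayed negative and their median was -0.14, against 0.021 over all 14776 genes. The offsets were fitted to these same libraries, so they also take out any genotype difference that goes with length or GC content, whatever its source. At an unadjusted p below 0.05, 15 of the 47 (31.9%) were lower, against 5.64% of all genes, and 1 was higher, against 5.94%. No member was called by edgeR with the offsets. Dot1l was then at -0.73 (adjusted p = 0.132), Chd2 at -0.53, Chd7 at -0.48, Brd1 at -0.38 and Brd3 at -0.36. The medians of the methyltransferases (-0.33) and bromodomain proteins (-0.36) remained below those of the SWI/SNF core and accessory subunits (-0.041) and of the demethylases (0.0059). Chd6 moved from -0.30 to -0.040 and Trrap from -0.21 to 0.098.

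**Figure D5:**
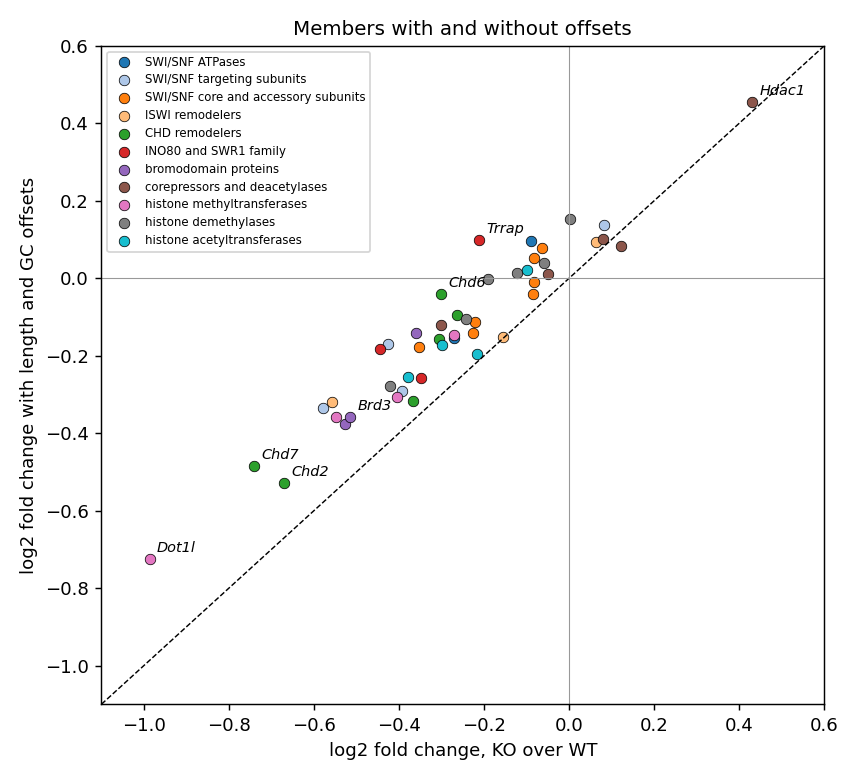
Log2 fold change of the 47 members with an exonic length, without offsets (horizontal) and with offsets for length and GC content (vertical); the dashed line marks equal values. Every member with a negative value and a length lies above the line, Dot1l at -0.99 and -0.73, while Hdac1 lies at 0.43 and 0.45.

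Pairs of paralogs were compared by their ratio within each library, which does not depend on scaling. Per exonic length, Arid1a exceeded Arid1b by 2.80, 2.55 and 2.31 times in WT and 2.38, 2.46 and 2.11 times in KO. Smarca2 and Smarca4 were near parity, with a ratio of 0.842 to 1.19 in WT and 0.759 to 0.98 in KO, and Smarcc1 was at 0.242 to 0.279 of Smarcc2 in WT and 0.242 to 0.288 in KO. Smarca5 over Smarca1 was 1.13, 1.09 and 1.02 in WT and 1.44, 1.17 and 1.19 in KO, without overlap between the groups (log2 difference 0.22, two-sided exact permutation p = 0.1, adjusted p = 0.660 over 11 pairs). Brd2 over Brd3 was 4.61 to 4.99 in WT and 4.86 to 5.76 in KO (0.16, exact permutation p = 0.2, adjusted p = 0.660). Chd7 over Chd8 was 0.492 to 0.711 in WT and 0.386 to 0.505 in KO (-0.48, exact permutation p = 0.2, adjusted p = 0.660). Hdac1 over Hdac2 was 0.608 to 0.954 in WT and 0.814 to 1.08 in KO (0.31, exact permutation p = 0.3, adjusted p = 0.660). With 3 libraries against 3 the test cannot go below 0.1, so no pair could pass.

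Partner genes of the same complexes showed smaller steps. Of 112 listed partners 105 were tested, with a median log2 fold change of -0.11 and a median exonic length of 4116 bp. None was called by edgeR in either direction, while an unadjusted p below 0.05 was reached by 26 (24.8%, against 9.38% of all genes) with lower and 2 (1.90%, against 6.99%) with higher levels in KO. Among 14 tested SWI/SNF partners the smallest p belonged to Ss18 (-0.25, SE 0.07, adjusted p = 0.194), Bicra (-0.64, SE 0.20, adjusted p = 0.207) and Bcl7a (-0.31, SE 0.10, adjusted p = 0.232). Among 37 ISWI, INO80 and SWR1 partners they were Nfrkb, an INO80 subunit, from 24.2 ± 0.171 to 15.5 ± 1.09 CPM (-0.64, SE 0.08, adjusted p = 0.0559), Ino80d (-0.50, SE 0.09, adjusted p = 0.109) and Epc1, of TIP60 (-0.32, SE 0.07, adjusted p = 0.135). Of 26 corepressor partners they included Arid4b (-0.43, SE 0.10, adjusted p = 0.141) and Arid4a (-0.29, SE 0.08, adjusted p = 0.184), of the SIN3 complex. Of 28 partners of acetyltransferases and DOT1L they were Supt20, a SAGA subunit, from 26.5 ± 1.36 to 16.5 ± 1.92 CPM (-0.68, SE 0.11, adjusted p = 0.084), Mllt6, a relative of DOT1L's partner MLLT10 (-0.68, SE 0.13, adjusted p = 0.109), and Atxn7, of SAGA (-0.42, SE 0.09, adjusted p = 0.140). The medians of these lists were -0.12, -0.11, -0.10 and -0.027 in that order.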

How the data were processed

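Islet RNA of 3 WT and 3 KO libraries was sequenced, and libraries were assigned to groups by their labelled genotype. Collagenase was used to isolate the islets and a TruSeq kit to make libraries of their total RNA, per the labels' protocols. Tools listed in the submitters' processing notes are HTSeq, DESeq2, HISAT2 2.1.0 and CASAVA 1.8.2, with mm9 as the build. The annotation, counting options and use of strand were not given in the sources used here. The deposited table holds raw read counts per gene that the authors had not normalized, and 0 of its columns were left over.

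Counts were tested in R 4.3.3 with edgeR 4.0.16: filterByExpr by genotype (15915 of 53670 genes kept), TMM factors, the quasi-likelihood F-test, and Benjamini-Hochberg adjustment over all tested genes. Levels are TMM-scaled CPM. Alternatives used DESeq2 1.42.0 and limma-voom (limma 3.58.1), other scaling and filters, the replicate number as a block, a sex covariate, offsets, and leaving out each library. The test was also run on simulated counts, drawn for each gene independently and without any sex, length or GC trend. That run therefore does not cover such trends in the real libraries. Replicates were distinct libraries: their chi-square per degree of freedom was 27.1 or more. GENCODE vM1 (mm9) gave positions, exon lengths and GC content for 92.8% of tested genes, and Srcap had no unique match. Values per library are given for Dot1l and, in each subgroup, for the members with the smallest and largest p, and of each partner list the 3 with the smallest p are named, except for 1 gene that is not reported here. Other members named with values per library were chosen after their values were seen. The members and lists were chosen with earlier results of these data known.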

Additional observations from a re-analysis of the deposited data

How the results depend on the processing

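The negative median of the 48 members held under every scaling, filter and test tried, between -0.31 and -0.26, and moved to -0.14 with the length and GC offsets; leaving out single libraries gave -0.30 to -0.25. The count of members called lower was 1, and became 19 in DESeq2, 6 at an adjusted p below 0.1, and 0 in limma-voom, with the sex covariate and with the offsets. Leaving out single libraries gave 0 to 4, the 4 without WT replicate 3. Over all genes, 27 were called lower, against 437 in DESeq2, 125 at an adjusted p below 0.1, 0 in limma-voom and with the sex covariate, 1 with the offsets, and 0 to 80 without single libraries. Genes called higher numbered 0, against 209 in DESeq2, 7 at an adjusted p below 0.1 and 0 to 9 without single libraries. The cause of these shifts was not tested. With the replicate number as a block, 0 genes and 0 members were called. The numbers were not taken as pairs in the main fit because nothing in the labels pairs the libraries. Same-numbered libraries correlated in their deviations at 0.21, 0.052 and 0.13, and the other combinations of WT and KO libraries at -0.25 to 0.078. WT replicate 2 correlated best with KO replicate 3. Whether the numbers mark pairs was not tested.

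Of 671 values of single members under the alternatives, 17 changed sign, all of members not called. With the offsets these were Smarca4 (0.098), Smarcb1 (0.077), Smarcc2 (0.051), Trrap (0.098), Sin3a (0.012), Kdm4a (0.015), Kdm5b (0.039) and Kat2a (0.021), and the median of the demethylases (0.0059). The log2 fold change of Kdm5a was -0.0014 with at least 1 CPM in 3 libraries and -0.15 with the sex covariate. Without single libraries Kdm5a ran from -0.044 to 0.075, Kdm5b from -0.11 to 0.017, Sin3a from -0.17 to 0.015 and Smarca5 from -0.045 to 0.14. The log2 ratio differences ran from -0.062 to 0.066 for Smarcc1/Smarcc2, -0.025 to 0.22 for Kdm4a/Kdm4b, -0.0030 to 0.10 for Kdm5a/Kdm5b and -0.016 to 0.18 for Kat6a/Kat6b. Srcap and Smarcd3, with the fewest counts of the members, were given no adjusted p by DESeq2.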
